A study of Mus musculus with 12 samples.

Results

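The genes described here encode 5 families of detoxification enzymes in the mouse olfactory mucosa: UDP-glucuronosyltransferases (Ugt), soluble glutathione S-transferases (Gst), sulfotransferases (Sult), aldehyde dehydrogenases (Aldh) and carboxylesterases (Ces). They were chosen by gene symbol alone (Ugt1 or Ugt2; Gst with a class letter and a number; Sult, Aldh or Ces with a number), and 7 pseudogene rows with a -ps suffix were left out. This gave 98 of the 44930 genes in the table, with 19 Ugt, 19 Gst, 20 Sult, 21 Aldh and 19 Ces genes. The Gst genes are of the alpha, kappa, mu, omega, theta and zeta classes. No row named for the pi class (Gstp) was found, so every Gst count, sum and share here leaves that class out. The measurement was RNA sequencing of ribodepleted total RNA from dissected olfactory mucosa. One group was 6 eB deletion mice, which lack an enhancer called eB, and the other was 6 wildtype mice. All 12 were age-matched males at postnatal day 30 on the mixed 129S6;C57BL/6J background. The deleted interval is 1155 bp on chromosome 7 (102847692 to 102848846, read as GRCm38 because the submitters' notes name that build elsewhere). No transgene, Cre driver or drug is named in the labels. The labels do not say whether the deletion was homozygous, or whether littermates were used.

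These enzymes handle foreign chemicals and the body's own signalling molecules. The transferases attach a sugar acid (Ugt), glutathione (Gst) or sulfate (Sult) to a molecule, which makes it more soluble and easier to export. Aldehyde dehydrogenases oxidize reactive aldehydes to acids, and Aldh1a1, Aldh1a2 and Aldh1a3 make retinoic acid from retinal. Carboxylesterases split esters and amides, including lipids. In the nose, sustentacular cells and Bowman's glands are known for high amounts of such enzymes, which act on inhaled compounds, odorants included.

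Reads on genes numbered 15466926 to 23059835 in eB deletion libraries and 13152662 to 19823345 in wildtype libraries, and no 2 libraries of the same group had values as alike as sampling noise alone would give. A predicted gene, Gm10800, took 2.38% of the reads in eB deletion 4 and 11.02% in wildtype 2, and above 0.1% in eB deletion 1 and wildtype 5 as well. The tissue label was borne out by defining markers: the sustentacular enzyme gene Cyp2g1 averaged 53916 normalized counts in eB deletion animals and 56008 in wildtype animals. Omp, the marker of mature olfactory neurons, averaged 63297 normalized counts in eB deletion animals and 64608 in wildtype animals. None of 6 liver markers reached the filter. Markers of other nasal tissue were present too. Nasal skeleton and muscle markers summed to 34006 to 59355 normalized counts in eB deletion animals and 21296 to 60226 in wildtype animals. Respiratory secretory markers summed to 83026 to 129283 in eB deletion animals and 77180 to 162409 in wildtype animals. The unit is the read count of a gene divided by the size factor of its library. A gene was tested if it reached 10 normalized counts in at least 6 libraries, which 59 of the 98 enzyme genes did (4 Ugt, 16 Gst, 9 Sult, 19 Aldh and 11 Ces). Levels are compared between genes per kilobase of annotated exon.

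The Ugt1a genes share exons with each other, and so do Ugt2a1 and Ugt2a2, and the letters below show the junctions for 5 of them, among which are all 4 Ugt genes that were tested. In each set, alternative upstream exons are spliced to common later exons. Each line gives the last 36 bases of the upstream exon in lower case, followed by the first 36 bases of the common exon in capitals (reference GRCm38, annotation GENCODE M21, 5′ to 3′ along the transcript). For Ugt1a the common exon lies on the plus strand of chromosome 1 at 88215044 to 88215175, and for Ugt2a1 and Ugt2a2 on the minus strand of chromosome 5 at 87465408 to 87465556, being exon 2 and exon 3 of the transcripts used.
Ugt1a6a: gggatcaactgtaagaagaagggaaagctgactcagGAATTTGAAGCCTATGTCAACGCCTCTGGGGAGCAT
Ugt1a6b: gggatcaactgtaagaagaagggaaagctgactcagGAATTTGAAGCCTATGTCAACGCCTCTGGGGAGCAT
Ugt1a7c: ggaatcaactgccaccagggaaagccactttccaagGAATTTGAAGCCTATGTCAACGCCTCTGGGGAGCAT
Ugt2a1: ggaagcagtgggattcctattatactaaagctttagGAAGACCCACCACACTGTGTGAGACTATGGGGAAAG
Ugt2a2: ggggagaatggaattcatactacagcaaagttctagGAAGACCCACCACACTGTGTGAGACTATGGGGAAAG

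Read from these lines, Ugt1a6a and Ugt1a6b are the same on both sides of the junction, whereas Ugt1a7c differs from them only in the lower-case part. Ugt2a1 and Ugt2a2 likewise differ only before the capitals. Of the exon bases of Ugt2a1, 98.8% are shared on the same strand with Ugt2a2, with a further annotated gene that overlaps both (RP23-227D7.10) or with both, and only 30 bases are its own. Ugt2a2 has 140 bases of its own. A read inside a shared exon cannot be given to 1 of these genes, and the labels do not say how the authors' counting treated such reads. The values of the Ugt1a genes, Ugt2a1 and Ugt2a2 are therefore uncertain. Counting by strand is not described either, and annotated genes on the other strand overlap 407 exon bases of Ces1a, 476 of Aldh7a1, 178 of Gstm5 and 130 of Aldh2.

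The families differed widely in level, and in each a few genes made up most of the signal. Sult1c1, a phenol sulfotransferase, had the highest level, 10952 normalized counts per kb of exon over all 12 animals, which ranked 56 among 19078 tested genes of known exon length. Gstm1, a mu class glutathione transferase, followed at 9363 per kb (rank 59). Ces1d, a carboxylesterase known as a triacylglycerol hydrolase, reached 6192 per kb (rank 76). Sult1d1, which in mice sulfates dopamine and other catecholamines, reached 5465 per kb (rank 91). These 4 were the enzyme genes within the 100 highest levels, while 9 lay within the first 500 and 13 within the first 1000. The others of the 13 were Gstm2, Aldh2, Gsta4, Gstm5, Aldh1a1, Sult1e1, Sult4a1, Ces1a and Aldh1a7. The median tested member had a level of 151 per kb, against 65.4 per kb for all tested genes.

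**Figure D1:**
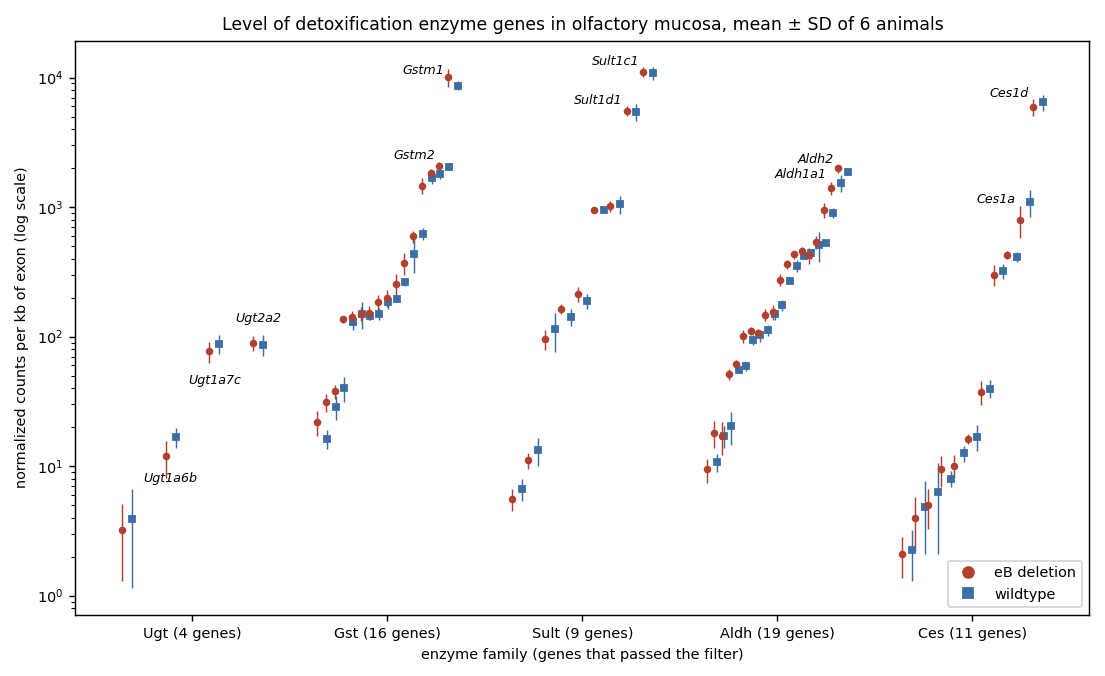
Level of each of the 59 tested enzyme genes, as normalized counts per kb of exon on a log scale, by family. Circles are means of 6 eB deletion animals and squares means of 6 wildtype animals, with bars for the SD; within each family genes are ordered by level, Sult1c1, Gstm1, Ces1d and Sult1d1 stand highest, and the pairs of means lie close together.

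As a share of its family's reads, Ces1d held 77.3% of all Ces normalized counts, Ugt1a7c 52.8% of Ugt, Gstm1 49.1% of Gst, Sult1c1 48.3% of Sult and Aldh2 31.3% of Aldh. The 3 genes with most counts held 93.9% in Ces, 93.2% in Sult, 92.0% in Ugt, 70.9% in Gst and 62.4% in Aldh. The Ugt shares and sums given here are uncertain, since they depend on how reads in shared exons were counted. The Gst shares and sums hold no pi class gene and are not those of the whole family. Per kb of exon that no other gene shares, the same counts give 182 for Ugt1a7c and 1598 for Ugt2a2. Summed over a family, the normalized counts in eB deletion animals were 35614 ± 1274 for Sult, 31436 ± 1991 for Aldh and 28940 ± 2857 for Gst (SD, n = 6). The wildtype sums were 34921 ± 3723 for Sult, 31353 ± 2223 for Aldh and 27231 ± 1418 for Gst (SD, n = 6). Ces genes summed to 18025 ± 2803 in eB deletion animals and 19947 ± 2717 in wildtype animals, and Ugt genes to 623 ± 89.5 in eB deletion animals and 694 ± 94.8 in wildtype animals (SD, n = 6). In each family the ranges of the groups overlapped. All 98 genes together took 0.661% ± 0.032 of the reads on genes other than Gm10800 in eB deletion animals and 0.655% ± 0.042 in wildtype animals (SD, n = 6). These sums are given without a test.

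**Figure D2:**
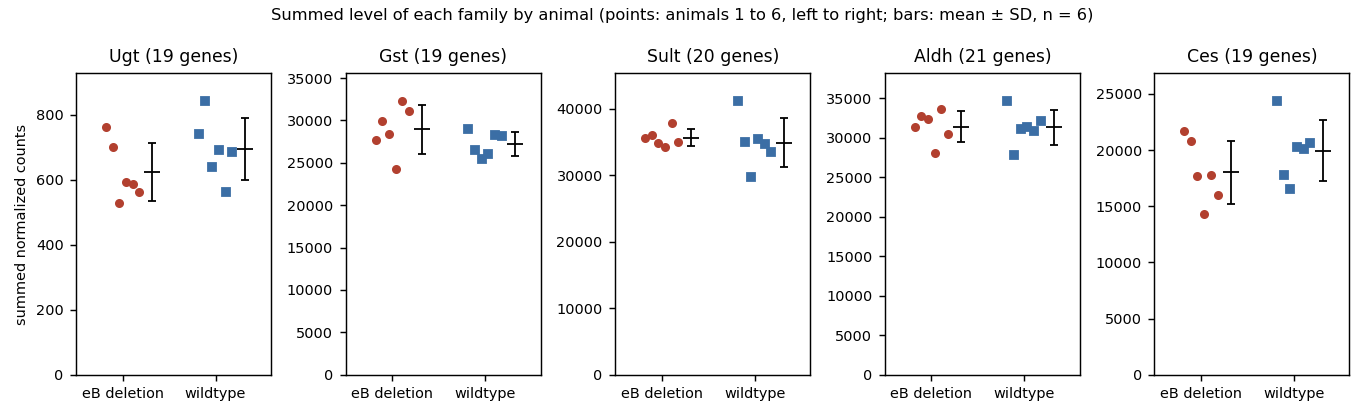
Summed normalized counts of each enzyme family, 1 point per animal (eB deletion circles, wildtype squares, animals 1 to 6 from left to right), with the mean and SD of 6 animals as bars. The groups overlap in all 5 panels; Ces sums run from 14268 to 21686 in eB deletion animals and from 16535 to 24397 in wildtype animals.

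The study compares eB deletion with wildtype animals, and for these enzymes the question is whether their RNA levels differ between the groups. No enzyme gene differed past an adjusted p of 0.05 by limma-trend with Benjamini-Hochberg adjustment over 19100 genes (0 of 59, lowest adjusted p 0.816), as was true of all genes tested (0.0%). At an unadjusted p under 0.05 there were 6 of 59 members, 3 higher and 3 lower in eB deletion animals, against a background of 5.64% of all genes (2.83% higher and 2.82% lower). The 6 are 10.2% of the members, and no test of that share was made; without eB deletion 6 or without wildtype 1 they were 3. By direction alone, 28 members had higher and 31 lower values in eB deletion animals, and among all genes 51.7% were higher. No member had values that did not overlap between the groups, where 0.293% of all genes did. The median log2 difference (eB deletion minus wildtype) was −0.02 over the members and 0.00 over all genes, and the members ranged from −0.51 to 0.40. On whole reads recovered from the values, DESeq2 called 0 members at an adjusted p under 0.05, against 0.115% of all genes. The quasi-likelihood test of edgeR also called 0 members, against 0.0% of all genes. At an unadjusted p under 0.05, DESeq2 gave 7 of 59 members and 1091 of 19100 genes. The edgeR test gave 6 of 59 members and 1120 of 19100 genes. In the authors' deposited DESeq2 results, 60 members have an adjusted p and 0 are below 0.05. The lowest among the members is 0.921, for Gstm1. The share of all genes below 0.05 in those deposited results is not given here. In bulk tissue, fewer cells of a type and less RNA per cell cannot be told apart.

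**Figure D3:**
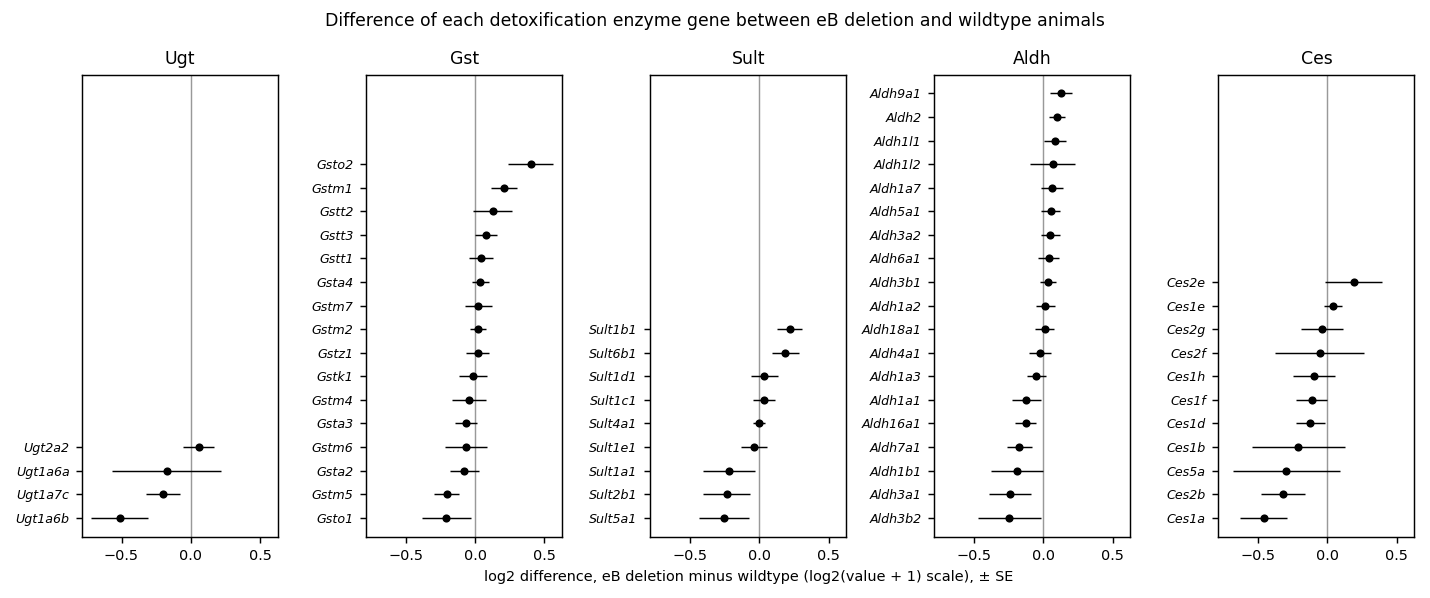
Difference of each of the 59 tested enzyme genes between eB deletion and wildtype animals, as the log2 difference on the log2(value + 1) scale with its standard error, by family. Points right of 0 are higher in eB deletion animals; they run from −0.51 for Ugt1a6b to 0.40 for Gsto2, and 0 of 59 passed an adjusted p of 0.05 (limma-trend).

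Among the glucuronosyltransferases, 1 of 4 tested genes had a higher and 3 a lower mean log2 value in eB deletion animals, with a median difference of −0.19. Ugt1a7c, the Ugt1a gene of highest level, had 266, 304 and 403 normalized counts (lowest, median and highest animal) in eB deletion animals and 288, 383 and 434 in wildtype animals. These overlapping values gave a log2 difference of −0.20 ± 0.12 (SE; adjusted p = 0.900, limma-trend). Ugt1a6b, a phenol-conjugating form, had 18.6, 27.5 and 41.9 normalized counts in eB deletion animals and 29.6, 40.4 and 50.1 in wildtype animals. Its log2 difference of −0.51 ± 0.20 was the lowest of all members (unadjusted p = 0.0230, adjusted p = 0.850, limma-trend), and 1 of 6 eB deletion animals lay above the wildtype mean. As printed above, its junction is identical to that of Ugt1a6a, and 79.8% of its 50-base stretches occur in other genes, so its value is uncertain. Ugt1a6a itself was near the filter, at 7.67, 11.1 and 29.5 normalized counts in eB deletion animals and 7.57, 11.4 and 37.5 in wildtype animals. Its highest animals in either group were the libraries with most Gm10800 reads, and without wildtype 2 its log2 difference of −0.17 ± 0.39 became 0.10.

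Ugt2a2 was the only Ugt2 gene that could be tested; Ugt2a1 and Ugt2a2 are known as the glucuronosyltransferases of the olfactory mucosa, where they conjugate odorants. It had 182, 228 and 273 normalized counts in eB deletion animals and 193, 206 and 299 in wildtype animals, with a log2 difference of 0.05 ± 0.11 (adjusted p = 0.981, limma-trend). Its neighbour Ugt2a1 had 101 reads in all 12 libraries together, against 2703 for Ugt2a2. Per kb of the whole exon, that is a level of 3.24 for Ugt2a1 and 88.0 for Ugt2a2. Per kb of the bases that no other gene shares, the same reads give 278 for Ugt2a1 and 1598 for Ugt2a2. The order of the 2 genes is the same on both scales, but the gap between them and their place among other genes depend on how shared reads were counted, which was not tested.

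Of the 16 tested glutathione transferases, 9 had higher and 7 lower values in eB deletion animals. Gstm1 had 12099, 14615 and 17612 normalized counts in eB deletion animals and 11060, 12842 and 14300 in wildtype animals. In eB deletion animals 3 of 6 values lay above the wildtype range, and the other 3 fell inside it. Its log2 difference was 0.21 ± 0.09 (unadjusted p = 0.0443, adjusted p = 0.878, limma-trend), with 4 of 6 eB deletion animals above the wildtype mean. Some 18.9% of its 50-base stretches occur in other genes, mostly the pseudogene Gstm2-ps1 (14.1%). Gstm5, its neighbour in the mu class cluster on chromosome 3, had 1492, 1837 and 2192 normalized counts in eB deletion animals and 1920, 2128 and 2569 in wildtype animals. With 1 of 6 eB deletion animals above the wildtype mean, its log2 difference was −0.20 ± 0.09 (unadjusted p = 0.0334, adjusted p = 0.858, limma-trend). The 6 tested genes of that cluster split evenly, 3 higher and 3 lower. As a description with no test, the log2 ratio of Gstm1 to Gstm5 within an animal was 2.98 ± 0.25 in eB deletion animals and 2.57 ± 0.21 in wildtype animals (SD, n = 6), and it overlapped between the groups (2.53 to 3.31 in eB deletion animals against 2.33 to 2.86 in wildtype animals).

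Gsto2, an omega class enzyme that reduces dehydroascorbate, had the highest log2 difference of the members but a low level. It had 39.3, 47.9 and 69.5 normalized counts in eB deletion animals and 28.1, 38.7 and 47.6 in wildtype animals. All 6 eB deletion animals lay above the wildtype mean, though the ranges overlapped, and the log2 difference was 0.40 ± 0.16 (unadjusted p = 0.0265, adjusted p = 0.850, limma-trend). Its relative Gsto1, on the same chromosome, had a log2 difference of −0.21 ± 0.18, from 554 to 941 normalized counts in eB deletion animals and 515 to 1142 in wildtype animals. The abundant Gstm2 and Gsta4, which clears the lipid aldehyde 4-hydroxynonenal, gave 0.02 ± 0.05 and 0.04 ± 0.06. Gsta3, Gsta2, Gstz1 (which acts in tyrosine breakdown) and the mitochondrial and peroxisomal Gstk1 lay between −0.08 and 0.02. For Gsta2, 49.8% of the 50-base stretches occur in other genes, and its value is uncertain.

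Sulfotransferases had the highest summed counts of the 5 families as chosen here, where Gst lacks the pi class. Of the tested sulfotransferase genes, 5 of 9 had higher and 4 lower values in eB deletion animals. Sult1c1 had 15455, 16885 and 19542 normalized counts in eB deletion animals and 14745, 16658 and 20234 in wildtype animals. The eB deletion range lay inside the wildtype range, with a log2 difference of 0.04 ± 0.08 (adjusted p = 0.984, limma-trend). Sult1d1 gave 0.04 ± 0.10 and Sult1e1, the estrogen sulfotransferase, −0.04 ± 0.09. The neuronal family member Sult4a1 averaged 2404 ± 83.6 normalized counts in eB deletion animals and 2403 ± 70.2 in wildtype animals (SD, n = 6), the lowest coefficient of variation of any tested member in both groups (3.48% in eB deletion animals and 2.92% in wildtype animals). Its log2 difference was 0.00 ± 0.04.

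Sult1b1, which sulfates thyroid hormones and small phenols, had 395, 454 and 502 normalized counts in eB deletion animals and 338, 383 and 493 in wildtype animals. All 6 eB deletion animals lay above the wildtype mean of 392, and the highest wildtype animal lay within their range. The log2 difference was 0.22 ± 0.09 (unadjusted p = 0.0245, adjusted p = 0.850, limma-trend). Sult1b1 lies in 1 cluster on chromosome 5 with Sult1d1, Sult1e1 and the Ugt2 genes, of which 3 of 4 tested members had higher values in eB deletion animals. Sult6b1 had 366, 456 and 525 normalized counts in eB deletion animals and 346, 386 and 501 in wildtype animals, with a log2 difference of 0.19 ± 0.10 (adjusted p = 0.887, limma-trend).

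**Figure D4:**
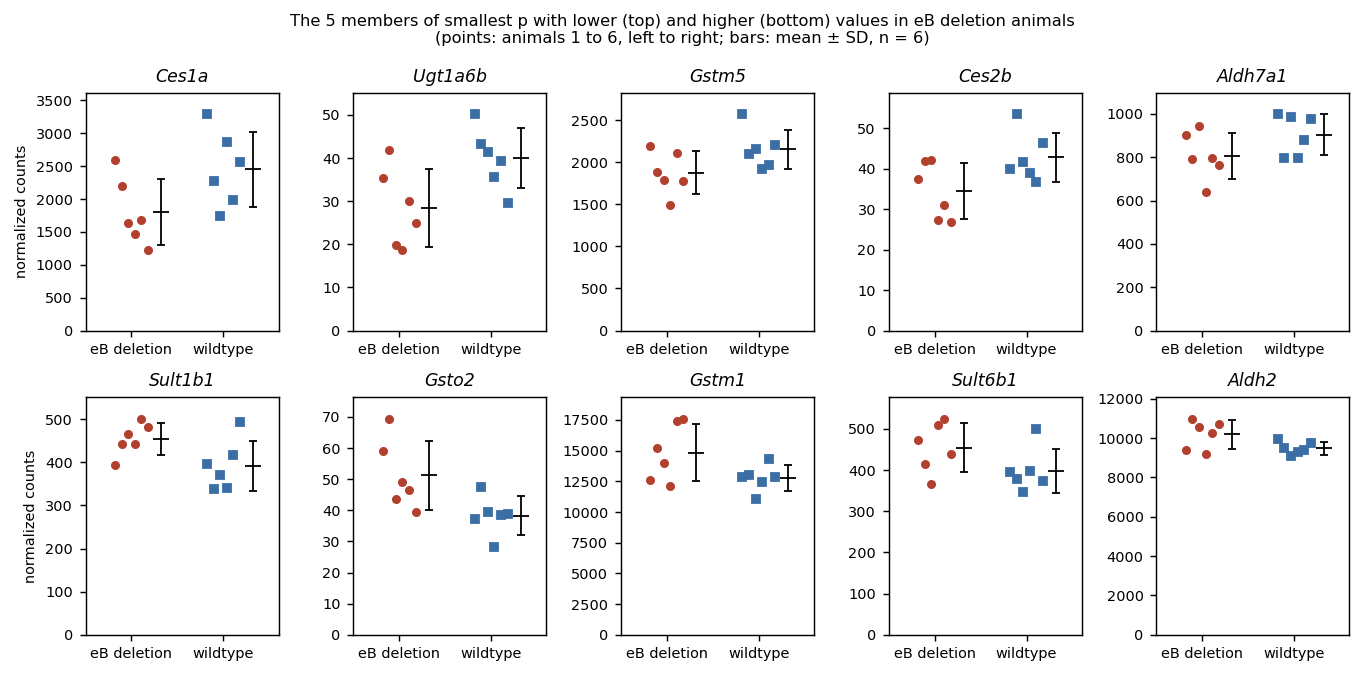
Normalized counts per animal for the 5 members of smallest p with lower values (top) and the 5 with higher values (bottom) in eB deletion animals; circles are eB deletion and squares wildtype animals, with mean and SD bars (n = 6). In all 10 panels the groups overlap, and no gene passed an adjusted p of 0.05 (limma-trend).

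The aldehyde dehydrogenases were the family with the largest share of tested genes, 19 of 21. Higher values in eB deletion animals were seen for 11 genes and lower ones for 8 (median log2 difference 0.02). At an unadjusted p under 0.05 there were 0 of 19 by limma-trend and 1 by DESeq2. The latter was Aldh2 (unadjusted p = 0.0492, adjusted p = 0.814, DESeq2). Aldh2, the mitochondrial enzyme that oxidizes acetaldehyde, had 9211, 10416 and 10989 normalized counts in eB deletion animals and 9063, 9433 and 9970 in wildtype animals. The groups overlapped, with the highest values in eB deletion animals, and the log2 difference was 0.10 ± 0.06 (adjusted p = 0.900, limma-trend). Aldh7a1, an enzyme of lysine breakdown, had 638, 793 and 942 normalized counts in eB deletion animals and 796, 927 and 998 in wildtype animals, with a log2 difference of −0.17 ± 0.09 (adjusted p = 0.887, limma-trend).

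The 3 enzymes that make retinoic acid, Aldh1a1, Aldh1a2 and Aldh1a3, had levels of 1469, 531 and 110 normalized counts per kb. Aldh1a1 had 5786, 7294 and 7683 normalized counts in eB deletion animals and 5499, 7733 and 8995 in wildtype animals, with a log2 difference of −0.12 ± 0.10. Aldh1a2 averaged 1211 ± 134 in eB deletion animals and 1194 ± 67.9 in wildtype animals, and Aldh1a3 496 ± 33.9 in eB deletion animals and 515 ± 47.7 in wildtype animals (normalized counts, SD, n = 6). Their log2 differences of 0.02 ± 0.07 and −0.05 ± 0.07 were within the spread between animals. Aldh1a7, a close relative of Aldh1a1, gave 0.07 ± 0.08. Aldh3a1, which oxidizes aromatic and medium-chain aldehydes and is abundant in the cornea, averaged 822 ± 111 normalized counts in eB deletion animals and 993 ± 262 in wildtype animals (SD, n = 6), a log2 difference of −0.24 ± 0.15 (adjusted p = 0.906, limma-trend).

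In the carboxylesterases, 2 of 11 tested genes had higher and 9 lower values in eB deletion animals, with a median log2 difference of −0.11. Among all genes 51.7% were higher. The 9 include Ces1b, Ces5a and Ces2f, near the filter, each with its highest wildtype value in wildtype 2, the library with most Gm10800 reads. Wildtype 2 had 28.9 normalized counts for Ces1b (other wildtype animals 7.41 to 12.1), 28.9 for Ces5a (8.34 to 16.4) and 17.3 for Ces2f (4.64 to 14.8). Ces1a had the smallest p of all members. Its normalized counts were 1232, 1662 and 2594 in eB deletion animals and 1748, 2421 and 3287 in wildtype animals. Of the eB deletion animals 1 of 6 lay above the wildtype mean, and the ranges overlapped over most of their length. The log2 difference was −0.46 ± 0.17 (unadjusted p = 0.0152, adjusted p = 0.816, limma-trend). Ces1d had 11004, 13856 and 16604 normalized counts in eB deletion animals and 12829, 15588 and 18594 in wildtype animals, a log2 difference of −0.12 ± 0.11 (adjusted p = 0.946, limma-trend). Ces1e gave 0.04 ± 0.06.

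Ces2b, of the subfamily known for drug hydrolysis in gut and liver, had 26.9, 34.3 and 42.1 normalized counts in eB deletion animals and 36.6, 40.7 and 53.4 in wildtype animals. None of the 6 eB deletion animals lay above the wildtype mean, the ranges overlapped, and the log2 difference was −0.32 ± 0.16 (adjusted p = 0.887, limma-trend). The Ces genes lie in 2 clusters on chromosome 8, where 6 of 7 tested genes (Ces1 and Ces5a) and 3 of 4 (Ces2) had lower values in eB deletion animals. The lower genes include Ces1b, Ces5a and Ces2f, which were near the filter and highest among wildtype animals in wildtype 2. Among eB deletion animals, eB deletion 4, also high in Gm10800, was highest for Ces5a (15.3) and Ces2f (15.3). For Ces1b it had 10.9, against 14.8 in eB deletion 1. The other lower genes were Ces1a, Ces1d, Ces1f, Ces1h, Ces2b and Ces2g. Neighbouring genes of a cluster share sequence and animals and are not independent. Over all 16 chromosomes that hold members, 9 clusters of at least 3 neighbours contain 66 of the 98 genes. Chromosome 7, which carries the deletion, holds 12 members, of which 4 were tested, and the nearest, Sult1a1, lies 23.8 Mb from the deleted interval. All 4 had lower values in eB deletion animals, and 51.7% of all genes had higher ones. The log2 differences were −0.22 ± 0.19 for Sult1a1, −0.05 ± 0.07 for Aldh1a3, −0.23 ± 0.17 for Sult2b1 and −0.12 ± 0.07 for Aldh16a1 (SE). None passed an adjusted p of 0.05 by limma-trend.

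Markers of the cell types in the mucosa gave the following values beside those of the enzymes. Of 9 tested Bowman's gland markers 2 had higher and 7 lower values in eB deletion animals (median log2 difference −0.18, 0 past adjusted p 0.05 by limma-trend). At an unadjusted p under 0.05 were 0 of these markers by limma-trend (5.64% of all genes), 2 by DESeq2 and 1 by edgeR (1091 and 1120 of 19100 genes). Their summed normalized counts ranged from 99228 to 181003 in eB deletion animals and from 114462 to 216490 in wildtype animals. Of 10 sustentacular markers 7 were higher and 3 lower (median 0.05), with sums of 222932 to 280946 in eB deletion animals and 226111 to 298742 in wildtype animals. At an unadjusted p under 0.05 were 1 of the 10 by limma-trend, 3 by DESeq2 and 2 by edgeR. Respiratory secretory markers split 1 higher and 6 lower of 7 (median −0.12), and mature neuron markers 7 higher and 2 lower of 9. The 9 other marker lists with tested genes had medians from −0.10 to 0.15, and none of their genes passed an adjusted p of 0.05. All tested markers were lower for horizontal basal cells (5), globose basal cells and progenitors (6) and endothelium (4). Counts higher and lower were 1 and 5 for ensheathing glia, 3 and 7 for respiratory ciliated cells and 2 and 4 for immature neurons. They were 2 and 3 for immune cells, 2 and 3 for red blood cells and 3 and 1 for skeleton and muscle. The part of cell makeup in the enzyme values was not tested.

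The 39 members that did not pass the filter were 15 Ugt, 11 Sult, 8 Ces, 3 Gst and 2 Aldh genes. They include all 8 genes of the Sult2a cluster on chromosome 7, hydroxysteroid sulfotransferases known from the liver, and 9 of the 10 Ugt2 genes. Together they had 66, 41, 49, 148, 39 and 30 reads in eB deletion animals 1 to 6, and 56, 304, 38, 32, 50 and 45 reads in wildtype animals 1 to 6. Wildtype 2 alone held 33.9% of these 898 reads, though it held 5.52% of all reads on genes other than Gm10800. It had a read on 39 of the 39, and eB deletion 4 on 36, while the other libraries had a read on between 10 and 29. Those 2 libraries are also the ones with most Gm10800 reads. In the 8 libraries with at most 0.1% Gm10800, 13 of the 39 genes had no read. The 6 liver markers summed to 8.6 to 23.0 normalized counts in eB deletion animals and 6.5 to 59.2 in wildtype animals. Of the tested genes, Ces1b, Ces2f, Ces5a and Ugt1a6a reached 10 in only 6 or 7 libraries, and their differences carry standard errors above 0.3.

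**Figure D5:**
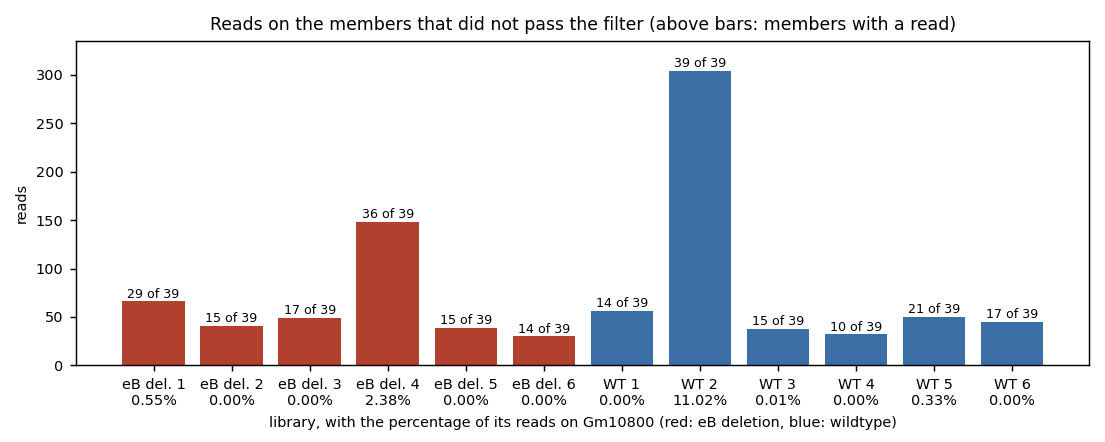
Reads in each library on the 39 enzyme genes that did not pass the filter, with the number of these genes that had a read above each bar and the percentage of the library's reads on Gm10800 below it. The libraries eB deletion 4 (148 reads) and wildtype 2 (304 reads) stand above the other 10 libraries, which have 30 to 66 reads.

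Around these families, 97 genes that supply their cofactors, regulate them or act beside them were listed by role, and 83 were tested. None passed an adjusted p of 0.05 by limma-trend (lowest 0.688), DESeq2 (lowest 0.0997) or edgeR. At an unadjusted p under 0.05, limma-trend gave 9 (3 higher and 6 lower), which is 10.8%, against the 5.64% of all genes. DESeq2 and edgeR gave 12 each of the 83, against 1091 and 1120 of 19100 genes. By direction 29 were higher (34.9%, against 51.7% of all genes) and 54 lower, with a median log2 difference of −0.03. Ugdh, which makes UDP-glucuronic acid, had 4424, 4739 and 5349 normalized counts in eB deletion animals and 4447, 4619 and 5420 in wildtype animals (log2 difference 0.02 ± 0.06). Gclc, the limiting enzyme of glutathione synthesis, gave −0.02 ± 0.06, and Papss2, which makes the sulfate donor PAPS, −0.05 ± 0.06. None of the 4 genes for UDP-glucuronic acid, 10 for glutathione and 7 for PAPS had an unadjusted p under 0.05 by limma-trend, where 5.64% of all genes had one. So few genes cannot show a share below that of all genes. By edgeR 1 of the 10 glutathione genes had an unadjusted p under 0.05. The carbonyl reductase gene Cbr2 had a level of 19347 normalized counts per kb, above that of any member, and a log2 difference of 0.07 ± 0.09. The membrane-bound transferases Mgst1 and Mgst3, at 2728 and 2659 per kb, gave −0.10 ± 0.07 and −0.02 ± 0.07.

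Nfe2l2 is a transcription factor that responds to electrophiles and oxidants. Of 9 listed genes driven by it, 2 had higher (22.2%, against 51.7% of all genes) and 7 lower values in eB deletion animals. None passed an adjusted p of 0.05. At an unadjusted p under 0.05, limma-trend gave 3 of the 9 (1 higher and 2 lower), which is 33.3%, against 5.64% of all genes. DESeq2 and edgeR gave 3 each, against 1091 and 1120 of 19100 genes. That share was not tested. Nfe2l2 itself had 4186, 4343 and 4538 normalized counts in eB deletion animals and 3537, 4024 and 4283 in wildtype animals. All 6 eB deletion animals lay above the wildtype mean (log2 difference 0.12 ± 0.05, unadjusted p = 0.0312, adjusted p = 0.850, limma-trend). Srxn1, which restores oxidized peroxiredoxins, had 801, 919 and 1001 normalized counts in eB deletion animals and 944, 1076 and 1155 in wildtype animals, with no eB deletion animal above the wildtype mean. Its log2 difference was −0.23 ± 0.06 (unadjusted p = 0.00274, adjusted p = 0.688, limma-trend). The quinone reductase gene Nqo1 had 4909, 5638 and 7242 normalized counts in eB deletion animals and 5373, 7929 and 9620 in wildtype animals (log2 difference −0.35 ± 0.14, unadjusted p = 0.0200, adjusted p = 0.850, limma-trend). Hmox1, the heme-degrading oxygenase, had 306, 322 and 381 normalized counts in eB deletion animals and 235, 277 and 321 in wildtype animals (0.26 ± 0.09, unadjusted p = 0.00875, adjusted p = 0.754, limma-trend). Both directions thus occurred among these targets.

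Among the remaining listed genes, the efflux transporter Abcg2 had 134, 162 and 191 normalized counts in eB deletion animals and 183, 192 and 270 in wildtype animals (log2 difference −0.36 ± 0.11, unadjusted p = 0.00581, adjusted p = 0.754, limma-trend). The ranges overlapped only between 183 and 191. Nat1, an arylamine acetyltransferase, gave −0.34 ± 0.13, and Ephx1, the microsomal epoxide hydrolase, 0.16 ± 0.07 (adjusted p = 0.850 and 0.859, limma-trend). The retinoic acid binding proteins Crabp1 and Crabp2 gave −0.08 ± 0.07 and 0.00 ± 0.12. Ugp2, Ggt7, Bpnt1, Ugt8a, Akr1a1, Pon1, Keap1, Txnrd1, Abcc1 and Abcc4, the other genes of highest level in their lists, lay between −0.07 and 0.09.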

How the data were processed

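Ribodepleted, stranded total RNA libraries of 12 olfactory mucosae (6 eB deletion, 6 wildtype) had been aligned with STAR 2.6.0 to GRCm38.p6 and compared with DESeq2, per the submitters' processing notes; no counting tool, annotation or strand setting is stated there. As a unit, the deposited signal is normalized counts, meaning gene reads that the authors scaled with a size factor for each library, as the values show; in every column 100.0% of nonzero values were whole multiples of 1 read (relative tolerance 0.001). The log2 fold changes, scores (test statistics), p-values and adjusted p-values in the authors' deposited table are the authors' own, with log2 fold changes positive where wildtype is higher.

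Values were tested by limma-trend on log2(value + 1), without covariates (R 4.3.3 with limma 3.58.1), for genes with at least 10 in 6 or more columns, with Benjamini-Hochberg adjustment over 19100 genes and a threshold of 0.05; such differences understate changes of low genes. DESeq2 1.42.0 and edgeR 4.0.16 on the recovered reads were alternatives. The p-values set the difference between the groups against the spread between these animals, with each gene's variance drawn toward that of genes of like level. They take the animals as independent, and the labels do not give litters or batches. Exon lengths and shared exons came from GENCODE M21, which matched 44840 genes; 50-base stretches of exon were compared between genes.

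The members and lists were chosen with earlier results of these data known. Named were the 5 members of smallest p in each direction and the 3 of highest level in each subfamily (2 per list, and 3 by p in each direction, for other genes), since fewer than 8 members passed. Further members (Sult1a1, Sult2b1, Sult4a1, Aldh1a2, Aldh1a3, Aldh3a1, Aldh16a1, Ces1f, Ces1h, Ces2g and those near the filter) were named after their values were seen. Depth was 13152662 to 23059835 reads on genes.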

Additional observations from a re-analysis of the deposited data

Results flagged for a closer look

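In 66 groups of 6 animals, formed from the named members and the low-member reads, 8 had an animal far outside the range of the others by Dixon's criterion at 95%, where chance gives about 1 in 20. In eB deletion animals, Gstm2 had 3080 normalized counts in animal 4, against 3466 to 3692 in the others. Ugt1a6a had 29.5 normalized counts in eB deletion 4, and 7.67 to 14.8 in the other 5. Reads on the 39 members below the filter were 148 in eB deletion 4, the others having 30 to 66. Among wildtype animals, those same 39 members had 304 reads in wildtype 2, the others having 32 to 56. Wildtype 1 stood apart for Gsta2, at 344 normalized counts (others 294 to 311), and for Gstk1, at 338 (others 244 to 279). Sult6b1 had 501 normalized counts in wildtype 5 (others 346 to 397). Ugt2a2 had 299 normalized counts in wildtype 4 (others 193 to 218).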

How the results depend on the processing

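Of 33 named log2 differences recomputed under up to 23 settings (755 values), 738 kept their direction and stayed above adjusted p 0.05, 17 changed sign (8 genes), and none passed the threshold. The sign changed for Gstk1 (0.0403) without the 2 libraries above 1% Gm10800 and for Ugt2a2 (−0.0711) without the 4 above 0.1%; that last setting also moved the log2 ratio of the Gst sum to 0.16, from 0.09. Leaving out 1 animal at a time gave ranges of −0.0406 to 0.0905 for Gstz1, −0.11 to 0.0154 for Sult1e1, −2.5e-05 to 0.15 for Ugt2a2, −0.0673 to 0.0467 for Gstk1, −0.00043 to 0.0910 for Sult1c1, −0.0295 to 0.0944 for Sult1d1, −0.0023 to 0.0576 for Gstm2 and −0.41 to 0.10 for Ugt1a6a. It gave 0 to 1 called genes of all tested (1 without wildtype 6) and 3 to 9 members at an unadjusted p under 0.05 (3 without eB deletion 6 or without wildtype 1). DESeq2 called 22 genes of all tested and 0 members. With no filter, 43 members were higher and 55 lower; with at least 50 in 6 columns, 55.3% of 47 members were higher. The cause of these shifts was not tested, beyond the fewer or added genes and animals. The deviations of animals with the same number correlated weakly (−0.116 to 0.161). This cannot exclude that equal numbers share a litter or batch, which the labels do not say, and the main test used no pairing. With the replicate block 0 genes were called, and 9 members and 1101 of all genes had an unadjusted p under 0.05 (limma-trend). Depth limits genes near the filter most.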
